A study of Mus musculus with 8 samples.

Results

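The genes described here encode triacylglycerol lipases, proteins of the lipid droplet and secreted products of the adipocyte, as they are expressed in whole esophagi of healthy MGL KO and WT mice. They were chosen by name as Lipe, Pnpla2, Plin1, Cidec, Fabp4, Adipoq, Cfd, Lpl, Lep and Retn, which are 10 of the 32849 gene symbols in the count table, and all 10 were found. MGL, monoacylglycerol lipase, is encoded by Mgll. The series compares the basal transcriptome of frozen esophagi between 4 MGL KO and 4 WT libraries, with no treatment in either group. The MGL KO line, a gift to the study in which the gene is deleted in the whole body, was bred in-house beside WT littermates. The study worked with adult mice of both sexes, and the labels tie neither age nor sex to a library. RNA was selected for poly(A) tails, and libraries held 13479069 to 17090152 counts in total.

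Triacylglycerol stored in a lipid droplet is broken down in steps. Adipose triglyceride lipase, encoded by Pnpla2, removes a fatty acid to give diacylglycerol, hormone-sensitive lipase, encoded by Lipe, turns this into monoacylglycerol, and MGL completes the chain by releasing glycerol. Perilipin-1 (Plin1) coats the droplet of adipocytes and restrains the lipases until the cell is stimulated, and CIDEC (Cidec) helps droplets to fuse into a large one. Lipoprotein lipase, encoded by Lpl, works outside the cell, on triacylglycerol carried by the blood, and is made by muscle and macrophages as well as by adipocytes. Adiponectin (Adipoq), adipsin (complement factor D, Cfd), leptin (Lep) and resistin (Retn) are hormones or secreted proteins of mouse adipocytes, and FABP4 (Fabp4) carries fatty acids inside adipocytes, macrophages and capillary endothelium.

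Adipoq and Cidec, whose expression went up and down together over the libraries, are shown with the bases before their start sites, because these windows overlap no annotated exon. The table of RefSeq promoters used here held 8 of the 10 genes, and Fabp4 and Lpl were not analysed. The promoter sequences, tabulated on GRCm38.p6, were placed on GRCm39 by exact match. Cidec and Lipe had 2 start sites each, of which the one nearest to the annotated 5′ end of the gene was taken, and the other was not searched. Each sequence is the 100 bases upstream, read 5′ to 3′ on the strand of the gene, and capitals mark the letters of any motif searched.
Adipoq, forward strand, GRCm39 chr16:22965186-22965285: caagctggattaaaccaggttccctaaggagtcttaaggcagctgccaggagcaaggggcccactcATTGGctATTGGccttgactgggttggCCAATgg
Cidec, reverse strand, GRCm39 chr6:113412722-113412821: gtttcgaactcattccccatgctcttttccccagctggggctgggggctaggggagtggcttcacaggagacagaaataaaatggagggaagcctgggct
On both strands, the windows were searched for the CCAAT box, for the TATA box spelled TATAAA, for the core of many C/EBP motifs, which was spelled GCAAT, and for a nuclear receptor motif, which was spelled AGGTCA. No match of these motifs overlapped another. The Adipoq window, which lies in an intron of the annotated gene, held 3 copies of CCAAT, and the Cidec window shown held none of the letters searched. Among 32851 RefSeq windows of the same length, CCAAT was found in 18.9%, TATAAA in 5.6%, GCAAT in 8.8% and AGGTCA in 5.9%. Plin1 and Retn each held 1 copy of GCAAT, and the other entries had no match. These matches describe the letters of the windows and do not show that a factor binds there.

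Values are given as normalized CPM, in which counts are scaled to the size of each library and a TMM factor. Differences were tested with the quasi-likelihood (QL) test of edgeR, and p-values were adjusted by Benjamini-Hochberg over 14864 genes. As a check of the labels, Mgll was at 13.7 ± 1.54 normalized CPM (SD, n = 4) in MGL KO and 81.2 ± 9.97 (SD, n = 4) in WT esophagi, and it was called lower in MGL KO (log2 fold change -2.57, standard error (SE) 0.13, edgeR QL adjusted p = 0.000133). Muscle and epithelium were both present in the samples, since the 14 skeletal muscle markers summed to between 44388 and 106858 normalized CPM and the 8 basal squamous epithelial markers to between 3023 and 5658. MGL KO replicate 4 stood apart from the rest. In that library, 13 airway ciliated genes (Tppp3 left out after its values were seen) summed to 775 normalized CPM, against 13.4 to 22.9 in the other libraries. With Tppp3, the sums lay between 815 and 1543 in MGL KO and between 419 and 732 in WT. Of the 9 tested, 9 were higher in MGL KO, 6 at an unadjusted p under 0.05 (8.65% over all genes tested) and 0 called by edgeR QL. Fold changes of the 10 genes that rest on MGL KO replicate 4 are given with and without it.

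For none of the 10 genes was a difference between MGL KO and WT esophagi detected. By edgeR QL, 0 of the 10 had an adjusted p under 0.05, against 0.0471% of all genes tested, and 0 had an unadjusted p under 0.05, against 8.65%. DESeq2, the edgeR exact test and limma-voom with quality weights also called 0 of the 10, adjusted or unadjusted. The adjusted p-values lay between 0.662 and 0.961. In no gene of the 10 did all MGL KO libraries lie on one side of all WT libraries, which was the case for 6.02% of the genes tested. All 10 genes passed the filter on low counts. Their log2 fold changes had a median of 0.33, with 9 above and 1 below 0, beside a median of 0.02 and 53.0% above 0 over all tested genes. This median rested on single libraries, since it was -0.14 without MGL KO replicate 4 and 0.91 without WT replicate 1.

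**Figure D1:**
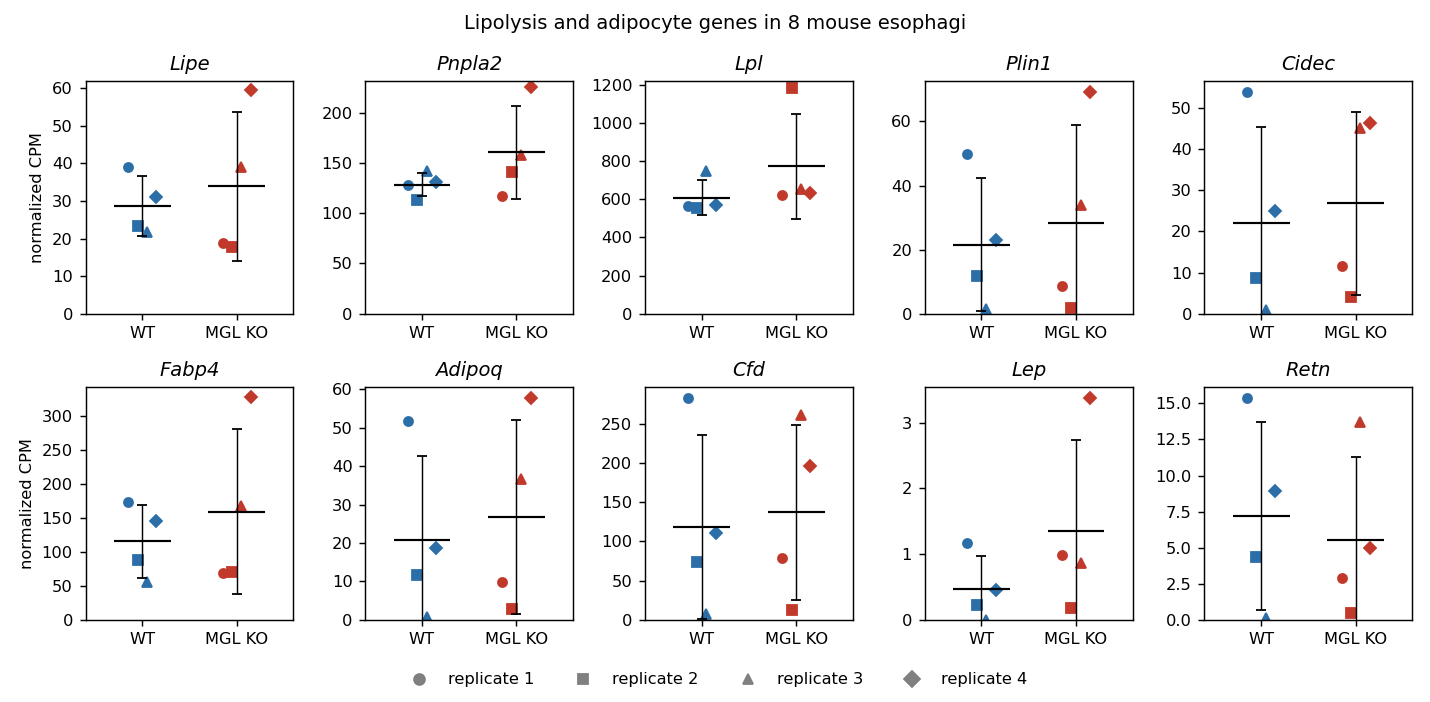
Normalized CPM of each gene (vertical axes from 0, a different scale in each panel) in the 4 WT (blue) and 4 MGL KO (red) libraries, with marker shapes for replicate numbers, a horizontal line for the mean and whiskers for 1 SD, cut at 0 where the SD exceeds the mean. In every panel the libraries of the groups overlap, and for Adipoq the WT libraries reach from 0.85 to 51.7 and the MGL KO libraries from 2.80 to 57.6.

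The libraries of a genotype differed widely from each other. Adipoq, whose product is made almost entirely by adipocytes, was at 9.86, 2.80, 36.6 and 57.6 normalized CPM in MGL KO replicates 1 to 4 and at 51.7, 11.6, 0.85 and 18.8 in WT replicates 1 to 4. The highest library, MGL KO replicate 4, thus held 67.4 times the Adipoq of the lowest, WT replicate 3, and the groups were interleaved. The value of 0.85 came from 13 counts, with a 95% exact Poisson interval of 0.455 to 1.46 normalized CPM, and that of 57.6 from 1025 counts, with an interval of 54.1 to 61.2. These intervals cover counting error only. The group means of 26.7 ± 25.2 normalized CPM (SD, n = 4) in MGL KO and 20.7 ± 21.9 (SD, n = 4) in WT gave a log2 fold change (SE) of 0.37 (1.05), with a 95% interval from -1.99 to 2.74. The sign rested on single libraries, as the log2 fold change of Adipoq was -0.32 without MGL KO replicate 4 and -0.0229 without WT replicate 3. Without WT replicate 1 it was 1.36. As a fold, the interval over all libraries spans 0.251 to 6.66 times the WT level. In bulk tissue, fewer adipocytes and less RNA per adipocyte cannot be told apart.

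The lipid droplet proteins followed Adipoq. Plin1 was at 8.76, 1.90, 34.0 and 69.1 normalized CPM in MGL KO replicates 1 to 4 and at 49.9, 11.8, 1.51 and 23.1 in WT replicates 1 to 4. Its 8 libraries stood in the same order as those of Adipoq, with MGL KO replicate 4 highest and WT replicate 3 lowest, 45.7-fold apart. Cidec was at 11.6, 3.97, 45.1 and 46.4 normalized CPM in MGL KO and at 53.8, 8.73, 0.99 and 24.8 in WT replicates 1 to 4. It ranged 54.5-fold, from WT replicate 3 to WT replicate 1, so that both ends of its range lay in WT. The ratio of Plin1 to Adipoq stayed between 0.677 and 1.77, and that of Cidec to Adipoq between 0.754 and 1.42, far less than the range of any of the 3 genes. The log2 fold changes were 0.40 (SE 1.06) for Plin1 and 0.28 (SE 1.006) for Cidec, and edgeR QL adjusted p-values were 0.921 and 0.942. Without MGL KO replicate 4 the log2 fold changes were -0.52 for Plin1 and -0.12 for Cidec. Cidec lies on chromosome 6 of GRCm39, 24.6 Mb from Mgll, from 113400691 to 113412721 on the reverse strand.

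Among the secreted products, Cfd was the most abundant. It was at 78.2, 12.7, 260.9 and 195.9 normalized CPM in MGL KO replicates 1 to 4 and at 282.6, 73.6, 8.02 and 110.2 in WT replicates 1 to 4, a 35.2-fold range with WT replicate 1 highest and WT replicate 3 lowest. Retn was at 2.88, 0.451, 13.7 and 5.002 normalized CPM in MGL KO and at 15.3, 4.34, 0.131 and 8.93 in WT, the lowest value coming from 2 counts. Its highest library was again WT replicate 1. Without MGL KO replicate 4, the log2 fold change of Cfd went from 0.21 (SE 0.99) to -0.0136 and that of Retn was -0.33. Lep, a gene with few reads, had 16, 2, 14 and 60 counts in MGL KO replicates 1 to 4 and 21, 4, 0 and 7 in WT replicates 1 to 4. The level of 3.37 normalized CPM in MGL KO replicate 4 was at least 17.1-fold higher than in WT replicate 3, where 0 counts allow up to 0.197 normalized CPM (3 counts in that library, counting error only). Lep had the largest log2 fold change of the 10 genes (1.53, SE 0.97, edgeR QL adjusted p = 0.673), which dropped to 0.55 without MGL KO replicate 4. Retn was the only gene of the 10 with a negative value (-0.38, SE 1.08, edgeR QL adjusted p = 0.926). Lep also lies on chromosome 6, 59.58 Mb from Mgll.

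Fabp4 and Lipe varied less steeply. Fabp4 was at 69.1, 70.9, 167.7 and 327.4 normalized CPM in MGL KO replicates 1 to 4 and at 173.7, 87.3, 55.7 and 144.6 in WT replicates 1 to 4, a 5.88-fold range. Lipe was at 18.9, 17.9, 39.1 and 59.6 normalized CPM in MGL KO and at 39.1, 23.4, 21.6 and 31.0 in WT, a 3.34-fold range with MGL KO replicate 4 highest and MGL KO replicate 2 lowest. Both genes kept the order of Adipoq in the 5 libraries richest in Adipoq, and both remained well above the floor of 3 counts where Adipoq was nearly absent, with 847 counts of Fabp4 and 329 of Lipe in WT replicate 3. The log2 fold changes were 0.46 (SE 0.54) for Fabp4 and 0.24 (SE 0.39) for Lipe, and both turned negative without MGL KO replicate 4 (-0.17 and -0.18). The locus of Lipe overlaps that of 4732471J01Rik, and the use of strand in counting is not given in the sources used here.

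**Figure D2:**
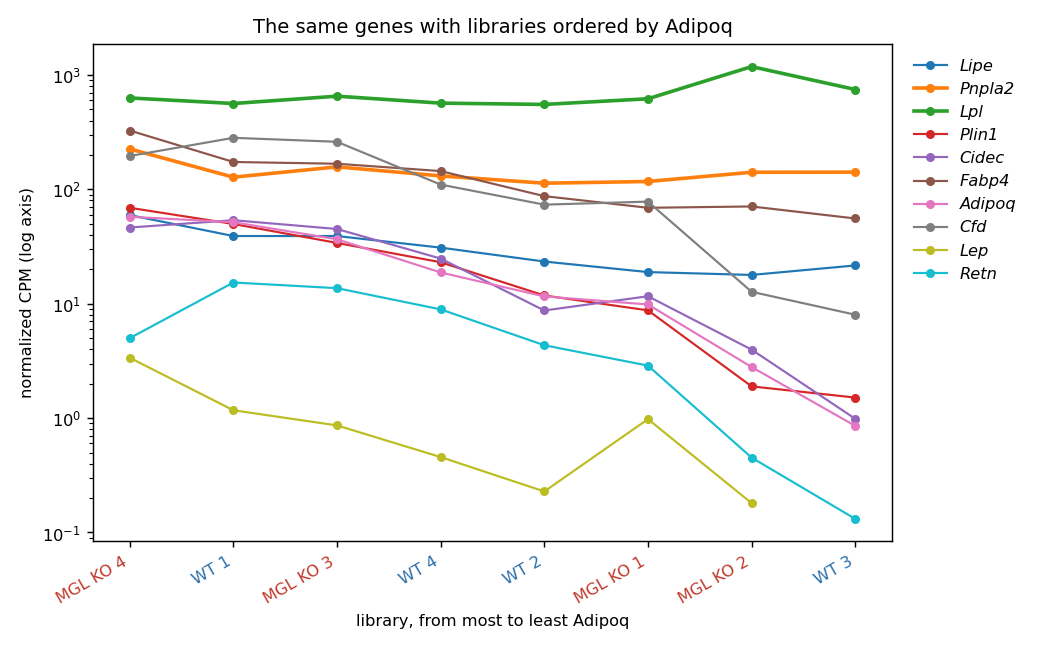
Normalized CPM (log axis) of the 10 genes, with the 8 libraries ordered from most to least Adipoq along the horizontal axis (WT names in blue, MGL KO names in red). Adipoq, Plin1, Cidec, Cfd and Retn drop toward the right, Lpl and Pnpla2 stay nearly level with ranges of 2.14-fold and 1.99-fold, and the point of Lep at 0 counts in WT replicate 3 is left out.

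Pnpla2 and Lpl, the lipases with expression well beyond adipocytes, did not follow Adipoq. Pnpla2 was at 117.3, 141.2, 157.4 and 225.9 normalized CPM in MGL KO replicates 1 to 4 and at 127.9, 113.3, 141.5 and 131.3 in WT replicates 1 to 4. MGL KO replicates 3 and 4 lay above the highest WT library, whereas the other MGL KO libraries lay within the WT range. The means were 160.4 ± 46.6 (SD, n = 4) and 128.5 ± 11.7 normalized CPM (SD, n = 4), and the log2 fold change was 0.32 (SE 0.19, 95% interval from -0.11 to 0.75, edgeR QL adjusted p = 0.662). Without MGL KO replicate 4 the log2 fold change of Pnpla2 was 0.11.

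Lpl was at 620.3, 1186, 653.4 and 630.7 normalized CPM in MGL KO replicates 1 to 4 and at 563.8, 553.4, 747.4 and 568.2 in WT replicates 1 to 4. A single library stood high in each group, MGL KO replicate 2 and WT replicate 3, and these were the libraries with the least Adipoq. The same libraries had the most skeletal muscle expression, with 106858 and 90041 normalized CPM summed over 14 markers, against 44388 to 70626 in the others, and the lowest basal squamous sums, 3023 and 3320 against 4734 to 5658. With the mean log2 CPM of these muscle markers as a covariate, the log2 fold change of Lpl was 0.39 (edgeR QL adjusted p = 0.229). In the same fit the median over the 10 genes was 0.11, and the log2 fold change was 0.03 for Adipoq, 0.0043 for Lipe, 0.14 for Fabp4, 0.11 for Cidec and for Cfd, 0.84 for Lep and -0.22 for Plin1. The group means of 772.5 ± 275.7 and 608.2 ± 93.0 normalized CPM (SD, n = 4 each) gave a log2 fold change (SE) of 0.34 (0.23), a 95% interval from -0.19 to 0.88 and an edgeR QL adjusted p of 0.688. This log2 fold change was 0.07 without MGL KO replicate 2 and 0.43 without MGL KO replicate 4. For Lpl and Pnpla2, a change of 2-fold in either direction lay outside the interval, which was not so for the other 8 genes.

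**Figure D3:**
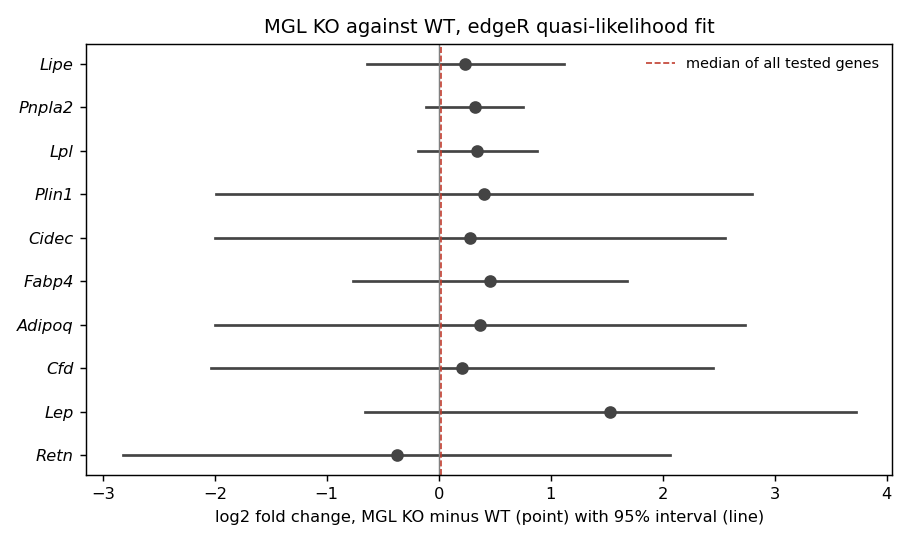
Log2 fold change of MGL KO minus WT for each gene (points) with its 95% interval (lines) from the edgeR QL fit, beside the median of all tested genes at 0.02 (dashed line). All intervals include 0. Those of Pnpla2 and Lpl are the narrowest, and those of Plin1, Adipoq and Retn reach about -2 or beyond on one side and above 2 on the other.

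Levels can be compared between genes per transcript length. Per kb of the canonical GENCODE transcript, the mean over the 8 libraries was 167.8 normalized CPM per kb for Lpl, 135.9 for Cfd, 100.8 for Fabp4, 70.1 for Pnpla2, 17.9 for Adipoq, 8.54 for Cidec, 8.33 for Plin1, 7.99 for Lipe, 5.55 for Retn and 0.278 for Lep. The order of Lpl and Cfd was not stable, as WT libraries reached from 134.5 to 181.6 normalized CPM per kb for Lpl and from 8.53 to 300.6 for Cfd. Fabp4 (40.9 to 127.7 in WT) overlapped both Pnpla2 (55.0 to 68.7) and Cfd, and Adipoq (0.646 to 39.0) reached below the lowest Lipe value. Cidec, Plin1, Lipe and Retn overlapped widely as well, with WT ranges of 0.345 to 18.8, 0.504 to 16.6, 5.52 to 9.98 and 0.115 to 13.4 normalized CPM per kb. Pnpla2 exceeded Lipe on this scale in every WT library, the lowest Pnpla2 value being 55.0 and the highest Lipe value 9.98. On the scale of counts, the 9 genes other than Lpl took between 0.0207% and 0.108% of a library.

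The spread within groups set 6 of the genes apart from most of the transcriptome. The SD of log2 CPM within groups, pooled over MGL KO and WT, was 2.44 for Retn, 2.23 for Adipoq, 2.20 for Plin1, 2.12 for Cidec, 2.07 for Cfd and 1.69 for Lep, where the median tested gene had 0.28. Only 0.276% of the tested genes exceeded Retn, 0.464% Adipoq and 0.632% Cfd in this SD. Fabp4 (0.93) and Lipe (0.66) were intermediate, and Lpl (0.35) and Pnpla2 (0.30) were near the middle of all genes.

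**Figure D4:**
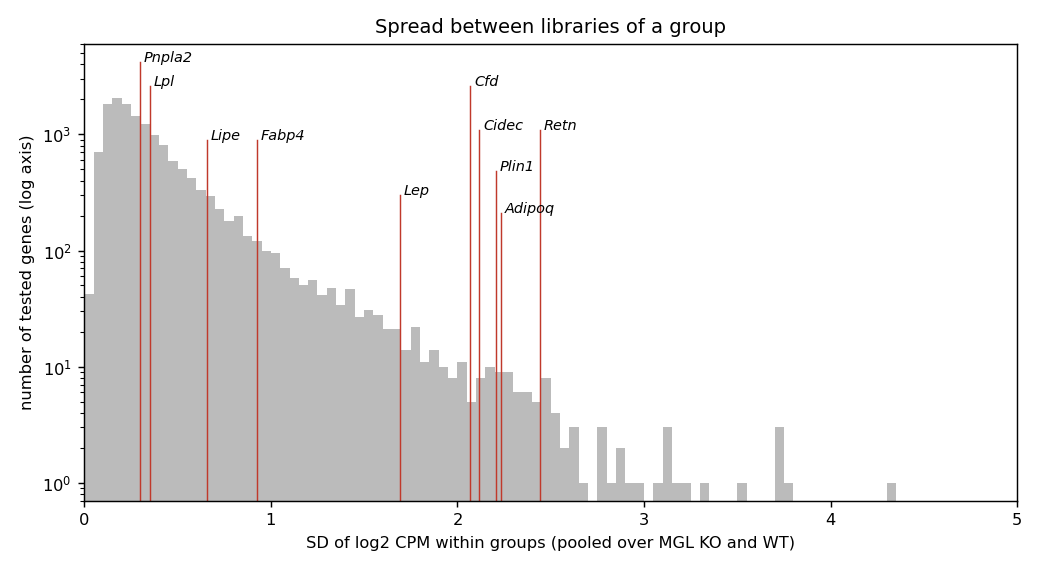
Histogram of the SD of log2 CPM between libraries of a group for the 14864 tested genes (number of genes on a log axis), with the 10 genes marked by red lines whose height carries no value. Lpl and Pnpla2 lie in the bulk of the distribution, whereas Retn, Adipoq, Plin1, Cidec, Cfd and Lep lie in the sparse right tail.

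Pearson's r of log2 CPM with Adipoq over the 8 libraries, given as a description of likeness, was 0.99 for Cidec, 0.98 for Plin1 and for Cfd, 0.94 for Retn, 0.91 for Lep, 0.88 for Fabp4, 0.81 for Lipe, 0.32 for Pnpla2 and -0.60 for Lpl. These values share library, depth and tissue composition, and 230 of the other 14863 tested genes had an r of at least 0.9. The genes outside the list with the highest r to Adipoq were Myh9 (0.99), Anxa5 (0.99), C5ar2 (0.98), Grik2 (0.98) and Arf6 (0.98). They were alike in the pattern over libraries, with smaller ranges than Adipoq. Myh9 ranged from 161.3 to 353.0, Anxa5 from 113.2 to 196.6 and Arf6 from 26.8 to 52.9 normalized CPM. C5ar2 (0.131 to 1.24) and Grik2 (0.723 to 3.01) were at low levels. For Lpl the closest genes were Zfp617, Pebp1, Psmb4, Nsmce3 and Rp9, and for Pnpla2 they were Dmrt2, Ccdc138, Tuba1a, Pofut2 and Spats2l.

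Most of the other adipocyte markers varied likewise. Leaving out Car3, which skeletal muscle also makes in quantity and which was set aside after its values were seen, the 9 remaining markers summed to 56.0, 20.1, 246.5 and 341.9 normalized CPM in MGL KO replicates 1 to 4 and to 226.4, 65.8, 16.8 and 121.9 in WT replicates 1 to 4. MGL KO replicate 4 was highest and WT replicate 3 lowest. This order of the sum rested on Pck1, an enzyme of glyceroneogenesis, which gave 203.0 of the 341.9 in MGL KO replicate 4. Without Pck1, set aside after its values were seen, the 8 other markers summed to 42.8, 12.002, 143.2 and 139.0 in MGL KO replicates 1 to 4 and to 167.4, 48.9, 15.4 and 80.2 in WT replicates 1 to 4, with WT replicate 1 highest and MGL KO replicate 2 lowest. Of the 9 markers, 5 were highest in WT replicate 1 and 3 in MGL KO replicate 4, and 4 each were lowest in MGL KO replicate 2 and WT replicate 3. Of genes picked after their values were seen, Pck1 ranged 140.3-fold (log2 fold change 1.46, SE 1.12, the largest value of the list), Cyp2e1 45.8-fold, Lgals12, a galectin of the adipocyte droplet, 34.3-fold and Adrb3, the beta-3 adrenergic receptor through which lipolysis is stimulated in adipocytes, 25.5-fold, whereas Sncg ranged only 1.37-fold. None of the 10 markers including Car3 passed the test between MGL KO and WT (edgeR QL, lowest adjusted p = 0.718), and 0 had an unadjusted p under 0.05.

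Retn and Cfd were low relative to Adipoq in MGL KO replicate 4. Retn per Adipoq was 0.0868 there and between 0.154 and 0.476 in the other libraries, and Cfd per Adipoq was 3.40 against 4.55 to 9.38. Lep (0.0585), Plin1 (1.199) and Cidec (0.806) per Adipoq lay within the range of the other libraries. The same library had the only high level of Ucp1, the uncoupling protein that defines brown adipocytes, at 43.6 normalized CPM against at most 2.45 elsewhere. Cidea, a droplet protein rich in brown fat, was at 66.0 normalized CPM there and at most 4.73 in the others, and Otop1, another gene of brown fat, was at 4.38 against at most 0.432. Of genes named after their values were seen, Adrb1 (10.004 against at most 1.499), Prkar2b (64.9 against at most 17.2) and Pparg (18.7 against at most 6.30) were highest in this library too. The brown adipocyte markers did not move together. Prdm16 (14.6 against at most 9.65) and Ppara (21.4 against at most 10.4) were also highest in MGL KO replicate 4, and Fabp3 was at 69.2 there and 68.9 in MGL KO replicate 2. Zic1 (5.002 against 8.76 to 18.0) and Ppargc1a (23.7 against 27.6 to 41.9) were lowest in that library. Cox8b was at 57.7 there and highest, at 151.0, in MGL KO replicate 2, and Elovl3 was highest in WT replicate 3 (0.789 against 0.450 in MGL KO replicate 4). The airway ciliated genes were high in the same library, and their part in these values was not tested. Of the 10 brown adipocyte markers, 7 passed the count filter, which Ucp1, Otop1 and Elovl3 did not. By edgeR QL, 0 of the 7 were called, with 2 at an unadjusted p under 0.05 (8.65% over all genes tested). Cidea had the lowest adjusted p, 0.558, at a log2 fold change of 2.44 (SE 0.997).

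**Figure D5:**
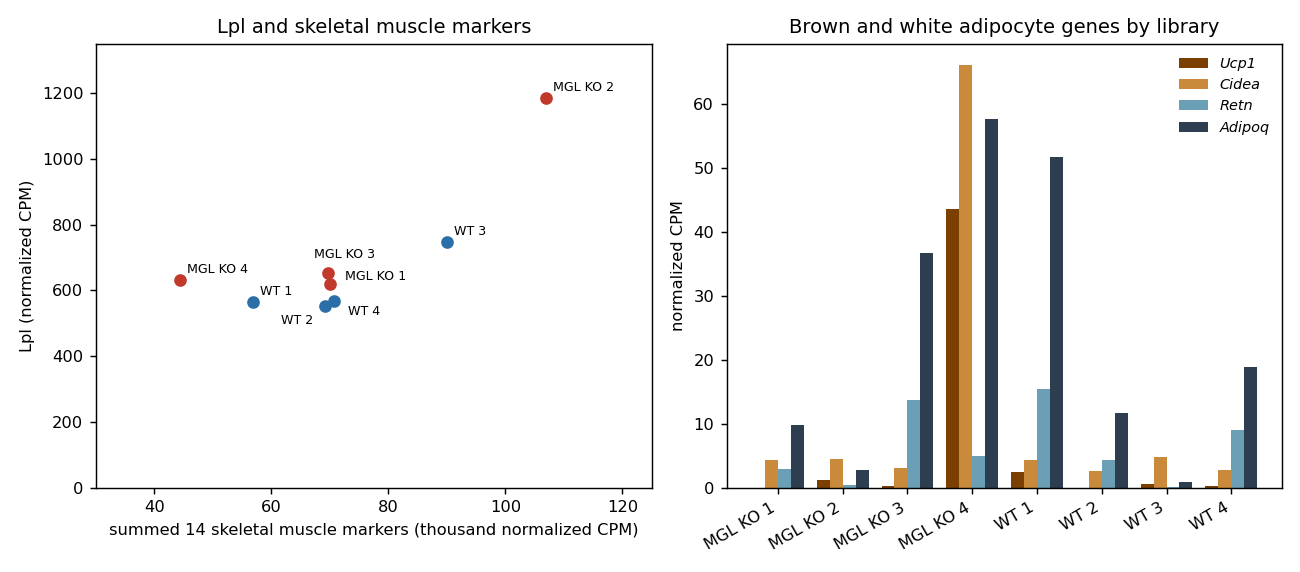
Left, Lpl (normalized CPM) against the summed 14 skeletal muscle markers (normalized CPM, in kilo-units) in each library, with MGL KO in red and WT in blue. The highest Lpl values, 1186 and 747.4, belong to the libraries with the most muscle expression. Right, Ucp1, Cidea, Retn and Adipoq in each library (bars, normalized CPM from 0), where Ucp1 reaches 43.6 in MGL KO replicate 4 alone.

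Of 26 partners of lipolysis, 25 were tested, and Mgll was the only one called, lower in MGL KO. None was called higher, and 5 had an unadjusted p under 0.05 (8.65% over all genes tested). The most abundant were Plin4 (385.4 ± 80.6 normalized CPM in MGL KO and 370.2 ± 46.0 in WT; SD, n = 4 each), a perilipin of muscle and fat, Gpd1 (132.0 ± 28.5 and 133.0 ± 12.1), which links glycerol to glycolysis, and Prkaca (110.8 ± 9.16 and 121.8 ± 19.8), the protein kinase A subunit that switches lipolysis on. For their roles, and with values already seen, 4 more are named. Abhd5, which activates the lipase encoded by Pnpla2, was at -0.03 (SE 0.12) on the log2 fold scale, and G0s2, which inhibits it, at 0.59 (SE 0.21, edgeR QL adjusted p = 0.523). Abhd6 and Abhd12, the other hydrolases of 2-arachidonoylglycerol, were at 0.13 (SE 0.23) and -0.13 (SE 0.15). Over the 25 tested genes the median log2 fold change was 0.13.

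Of 14 partners of lipoprotein lipase, 9 were tested and 0 were called by edgeR QL, with 0 at an unadjusted p under 0.05. Apoe (305 ± 101 normalized CPM in MGL KO and 403 ± 259 in WT; SD, n = 4 each), Cd36, a fatty acid transporter (199.4 ± 50.6 and 156.9 ± 18.0), and Sel1l (117.9 ± 19.4 and 111.9 ± 14.3) were the most abundant. Gpihbp1, named after its values were seen, holds lipoprotein lipase on the capillary wall. It was at 11.9 ± 2.83 normalized CPM in MGL KO and 8.45 ± 1.66 in WT (SD, n = 4 each), a log2 difference of 0.50 (SE 0.22, edgeR QL adjusted p = 0.58). Angptl4, an inhibitor of the enzyme named likewise, varied from 4.59 to 46.0 normalized CPM within MGL KO.

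All 18 genes of triacylglycerol synthesis were tested, and 0 were called by edgeR QL, with 1 (Fitm2, log2 fold change 0.52, SE 0.11, adjusted p = 0.278) at an unadjusted p under 0.05. Fitm2, whose protein helps to form lipid droplets, was past the threshold with DESeq2 (adjusted p = 0.00483) and in edgeR QL with the muscle covariate (0.0445), and not in the other alternatives. Over the 18 genes the median log2 fold change was -0.05, with 7 above and 11 below 0. The most abundant were Acsl1, Gpam and Scd1. Acsl1 (1.24-fold) and Gpam (1.37-fold) varied little over the 8 libraries, while Scd1, which makes monounsaturated fatty acids, ranged 10.1-fold and Fasn, fatty acid synthase, named like Fitm2 after its values were seen, 6.56-fold, both with low values in MGL KO replicate 2 and WT replicate 3. Scd1 was as low in MGL KO replicate 1 (48.4 normalized CPM) as in MGL KO replicate 2 (45.8), with 30.6 in WT replicate 3 and 127.3 to 308.7 in the rest. Of 4 adipokine receptor genes, 0 were called by edgeR QL and 0 had an unadjusted p under 0.05. Adipor1 was at 318.0 ± 87.7 normalized CPM in MGL KO and 267.7 ± 10.9 in WT, Adipor2 at 132.8 ± 14.6 and 116.4 ± 10.3, and Cdh13 at 66.6 ± 6.28 and 69.1 ± 13.7 (SD, n = 4 each). Of 8 regulators of adipogenesis, 0 were called by edgeR QL and 3 had an unadjusted p under 0.05 (8.65% over all genes tested). All 8 had a log2 fold change above 0 (53.0% over all genes tested), with a median of 0.35. Rxra, Cebpa and Klf15 were the most abundant of them, with log2 fold changes of 0.23 (SE 0.11), 0.31 (SE 0.41) and 0.38 (SE 0.14) and edgeR QL adjusted p-values of 0.602, 0.8287 and 0.523. The largest difference among the regulators, named after its values were seen, was in Cebpd, a C/EBP factor of early adipogenesis. It was at 44.3, 64.9, 62.6 and 55.8 normalized CPM in MGL KO replicates 1 to 4 and at 21.4, 18.0, 19.3 and 41.9 in WT replicates 1 to 4, so that the groups did not overlap (log2 fold change 1.18, SE 0.27, edgeR QL unadjusted p = 0.00198, adjusted p = 0.359). The call of Cebpd depended on the tool. It was past the threshold in the edgeR exact test that the study used (adjusted p = 0.0172 on filtered genes and 0.0395 on all genes with a count), with DESeq2 (0.00902) and in the edgeR QL fit without WT replicate 4 (0.0428), and not in the other alternatives, where its edgeR QL or limma adjusted p lay between 0.127 and 0.788. Its log2 fold change was above 1 in all of them. On simulated counts, 13% of the calls of the exact test and 23.1% of those of DESeq2 were false, against 6.7% for edgeR QL. Cebpb, named likewise, was also higher in all 4 MGL KO libraries than in any WT library (0.56, SE 0.17, edgeR QL unadjusted p = 0.00961, adjusted p = 0.478). Over all genes tested, the groups did not overlap in 6.02%. Klf15, the other regulator with an unadjusted p under 0.05, lies on chromosome 6, 1.63 Mb from the deleted Mgll, and Pparg lies 26.53 Mb from it.

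Markers of other cells that make Fabp4 or Lpl were measured beside these genes. The 10 endothelial markers had a median log2 fold change of -0.24, with 10 of 10 values below 0, 2 at an unadjusted p under 0.05 and 0 called by edgeR QL. Their sum lay between 209.3 and 371.7 normalized CPM in MGL KO and between 286.7 and 365.0 in WT. Of the 11 macrophage markers, 10 had a value below 0, with a median log2 fold change of -0.86, 8 at an unadjusted p under 0.05 and 0 called by edgeR QL (lowest adjusted p = 0.503). Their sum without Lyz2, set aside after its values were seen, lay between 204.7 and 253.3 normalized CPM in MGL KO and between 225.0 and 656.8 in WT. WT replicates 1 (656.8) and 4 (421.1) stood apart, whereas WT replicate 2 (265.0) was just above the MGL KO range and WT replicate 3 (225.0) within it. Over all genes tested, 53.0% had a log2 fold change above 0 and 8.65% an unadjusted p under 0.05 (edgeR QL). No defining marker of either list was at 0 in any library. The parts of these cells in the levels of Fabp4 and Lpl were not tested.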

How the data were processed

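After adapter removal (Cutadapt), the authors mapped reads to GRCm39 by STAR 2.7.10b and deposited whole-number counts per gene symbol, without normalization. The annotation, the counting tool and its strand setting are not given in the sources used here. Genes were kept by filterByExpr at a minimum count of 10 (edgeR 4.0.16, R 4.3.3), which left 14864 of 22721 symbols with a count and 98.1% to 99.9% of the counts of a library. The groups were compared in edgeR (glmQLFit, glmQLFTest) with TMM factors, adjusting by Benjamini-Hochberg at 0.05. An SE was taken from the log2 fold change and its F, as |change|/√F, and 95% intervals use the degrees of freedom of that test. Log2 CPM used a prior count of 1. Positions and transcript lengths come from GENCODE on GRCm39.

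The exact test that the study used, DESeq2 1.42.0 and limma 3.58.1 served as alternatives. Counts were simulated for 14864 genes with the means and dispersions of this comparison. The quasi-likelihood test recovered 44.6% of changes of 1 and 81.0% of changes of 2 on the log2 scale. Of its calls, 6.7% were false, against 4.5% with limma-voom, 13% with the exact test and 23.1% with DESeq2. Changes were planted in genes drawn at random, and the median SE of all tested genes was 0.199. The rates need not hold for genes of the 10 with a larger SE, such as Adipoq (1.05). The genes described and the lists were chosen with earlier results of these data known. Named genes were the 10 genes, Mgll, called genes and the 3 most abundant genes of each pathway list, the 5 genes most like Adipoq, Lpl and Pnpla2, and defining markers of cell types. The labels number the libraries of a group and do not say that each is a separate mouse, so p-values measure the spread between these samples. No pair of libraries of a group agreed within sampling noise (chi-square per degree of freedom of 13.6 or more).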

Additional observations from a re-analysis of the deposited data

Results flagged for a closer look

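Of 54 groups of 4 libraries compared, over the 10 genes, Mgll and the gene lists, 8 had a library far from the others of its group. A rate of 1 in 20 would give about 2.7, but it assumes normal values and independent groups. These groups share the same 8 libraries and some genes, so 8 cannot be judged against 2.7. Lpl was high in MGL KO replicate 2 (1186 normalized CPM, the rest of that group reaching 653.4) and in WT replicate 3 (747.4, the rest of WT at most 568.2). The 4 adipokine receptor genes summed to 666.4 normalized CPM in MGL KO replicate 2, against at most 500.7 in its group. The 8 basal squamous markers summed to 3320 in WT replicate 3, against at least 4819 in its group.

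Within its group, MGL KO replicate 4 was high in the sum of the 11 macrophage markers (1602 normalized CPM, of which Lyz2 alone gave 1397.5, with the rest of the group reaching 448.1). The same held for the 14 airway ciliated markers (1543, the rest of MGL KO at most 908.5), the 8 airway secretory markers (10381, at most 180.9) and the 6 thyroid markers (36.4, at most 6.12). In WT, the macrophage sum reached 1385, the airway ciliated sum 732.5, the airway secretory sum 201.5 and the thyroid sum 10.04. None of Adipoq, Plin1, Cidec, Fabp4, Cfd, Lep, Retn, Lipe and Pnpla2 had a library this far from its group.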

How the results depend on the processing

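None of the 10 genes was called under any of the alternatives (13 fits and 2 other thresholds with all libraries, 8 fits without 1 library), and the lowest adjusted p of any of them was 0.229 (Lpl, with the skeletal muscle markers as a covariate, log2 fold change 0.39). Unadjusted p-values under 0.05 were met by Lpl in that fit (0.01999) and with the other adipocyte markers as a covariate (0.04454), by Lep with the latter (0.03067) and without WT replicate 1 (0.04512), and by Pnpla2 without MGL KO replicate 1 (0.03527) (edgeR QL). Over all genes, the count of 7 became 65 by exact test after the filter and 42 before it, 133 by DESeq2, 25 by limma-voom (quality weights), 17 with the other adipocyte markers and 29 with the skeletal muscle markers as a covariate, 13 at an adjusted p under 0.10, and 2 in each of the robust fit, the unfiltered fit and the fit held to an adjusted p under 0.01. It was 2 to 5 without 1 library, with fewer samples in the fit. Except for the thresholds, the cause of these shifts was not tested. Of the calls, 3 of 7 were higher in MGL KO, and 5 of 6 with library size alone. The direction of 7 of the 10 genes changed in some fit. With all libraries, this was so for Retn with limma-voom (0.0595), Cfd with the replicate block (-0.0412) and Plin1 with the skeletal muscle covariate (-0.22). Leaving out 1 library gave log2 fold changes of -0.18 to 0.45 for Lipe, -0.52 to 1.23 for Plin1, -0.12 to 1.22 for Cidec, -0.17 to 0.73 for Fabp4, -0.32 to 1.36 for Adipoq, -0.31 to 1.1001 for Cfd and -1.35 to 0.31 for Retn. Pnpla2 (0.11 to 0.45), Lpl (0.07 to 0.47) and Lep (0.55 to 2.55) kept their sign in these fits. The replicate block called 2 genes and none of the 10. Deviations of same-numbered libraries correlated at -0.14, -0.28, -0.14 and 0.08. These values do not show whether samples were paired, since differences in tissue composition between libraries enter them too. A minimum of 10 counts in every library left 8 of the 10 genes. At this depth, Lep and, in WT replicate 3, Retn rest on a few counts.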
